A study of Mus musculus with 4 samples.

Results

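Glutamate receptor genes and the genes of their auxiliary subunits were measured in the dorsal striatum and the nucleus accumbens of old mice. The genes were chosen by symbol. They are the 4 AMPA, 5 kainate, 2 delta and 7 NMDA receptor genes, the 8 metabotropic receptor genes and 12 auxiliary genes (Cacng2 to Cacng8, Cnih2, Cnih3, Gsg1l, Neto1 and Neto2), or 38 of the 32531 gene rows. All animals were older than 20 months and belonged to the line Drd1-TRAP CP73, in which Drd1 regulatory sequence drives an EGFP/Rpl10a fusion, a tagged ribosomal protein made for pulling down RNA of Drd1 cells. Each region had 2 libraries of the input kind, taken here as total RNA before any pull-down, so all cell types of the tissue contribute. The comparison asks how the regions differ in old animals, and both groups carry the transgene.

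Glutamate released by cortical and thalamic axons is the main excitatory drive of striatal spiny projection neurons. AMPA, kainate and NMDA receptors are tetrameric ion channels that glutamate opens. AMPA receptors carry fast transmission, NMDA receptors admit calcium when the membrane is already depolarised, and kainate receptors also act in presynaptic terminals. Metabotropic receptors signal through G proteins. Group I, with Grm5, couples to phospholipase C, while group II (Grm2, Grm3) and group III (Grm4, Grm6, Grm7, Grm8) inhibit adenylyl cyclase. Auxiliary subunits such as the TARPs of the Cacng genes, the cornichons Cnih2 and Cnih3, Gsg1l and the Neto proteins bind the channels and set their trafficking and gating.

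The libraries held 8478403 to 11849134 counts assigned to genes. More genes were detected in the dorsal libraries (19519 and 19532) than in those of accumbens (16915 and 17417). The correlation of log2 CPM within a pair was 0.982 for dorsal striatum and 0.917 for accumbens, and the part of these differences in the results below was not tested. Markers of spiny projection neurons were abundant in every library, with a summed level of 5917 and 6005 CPM (a count scaled to library depth, here with TMM factors) in dorsal striatum and 5300 and 4280 CPM in accumbens. The summed level of 10 markers of cortical glutamatergic neurons was 159 and 69.6 CPM in dorsal striatum and 386 and 224 CPM in accumbens. Most of that difference was Slc17a7, at 32.3 and 0.717 against 198 and 79.4 CPM, while Emx1 lay between 0.0797 and 0.75 CPM. Of these markers 9 were tested, none passed an adjusted p of 0.05, and 5 were higher in accumbens at an unadjusted p under 0.05 (edgeR). Over all tested genes 0.994% passed the adjusted threshold higher in accumbens and 0.290% lower. Of 9 spiny projection neuron markers 1, Rgs9, passed, lower in accumbens, at 1590 and 1314 against 659 and 663 CPM. The list was split, with 4 of the 9 log2 fold changes positive. At an unadjusted p under 0.05 (edgeR) 2 were higher and 2 lower in accumbens, where 10.9% and 8.27% of all genes were. Of 5 tested GABA interneuron markers 1, Sst, passed, higher in accumbens. The GABA interneuron markers summed to 114 and 129 against 255 and 224 CPM. Most of the difference was Sst, at 53.5 and 58.4 against 193.5 and 142.8 CPM, while Pvalb (log2 fold change −1.25) and Nos1 (−0.22) had negative values and did not pass. The cholinergic markers summed to 77.7 and 94.5 against 71.2 and 79.1 CPM. Oligodendrocyte markers summed to 1954 and 1351 against 2025 and 2363 CPM, their precursors to 91.8 and 86.3 against 98.0 and 122, microglia to 50.1 and 37.7 against 61.4 and 64.8, and endothelium to 12.4 and 4.62 against 31.3 and 8.75. None of the markers in these last 4 lists or the cholinergic list passed. The part of these cell types in the results below was not tested. Markers of hypothalamus or pallidum summed to 36.3 and 46.5 against 20.3 and 48.1 CPM. In bulk tissue, fewer cells of a type and less RNA per cell cannot be told apart.

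Most of the receptor genes were expressed in both regions. After a filter on low counts 36 of the 38 were tested. The 2 left out were Grm6, a receptor known from retinal bipolar cells, with no count in either dorsal library and 8 and 0 counts in accumbens, and Cacng6, a gene of the same family as the TARPs, with 1 and 0 against 0 and 2 counts. A count of 0 allows up to 3 counts, which is 0.239 to 0.375 CPM at these depths. Among the tested members the mean over all libraries ran from 1.43 CPM for Grin3b to 1125 CPM for Gria2.

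**Figure D1:**
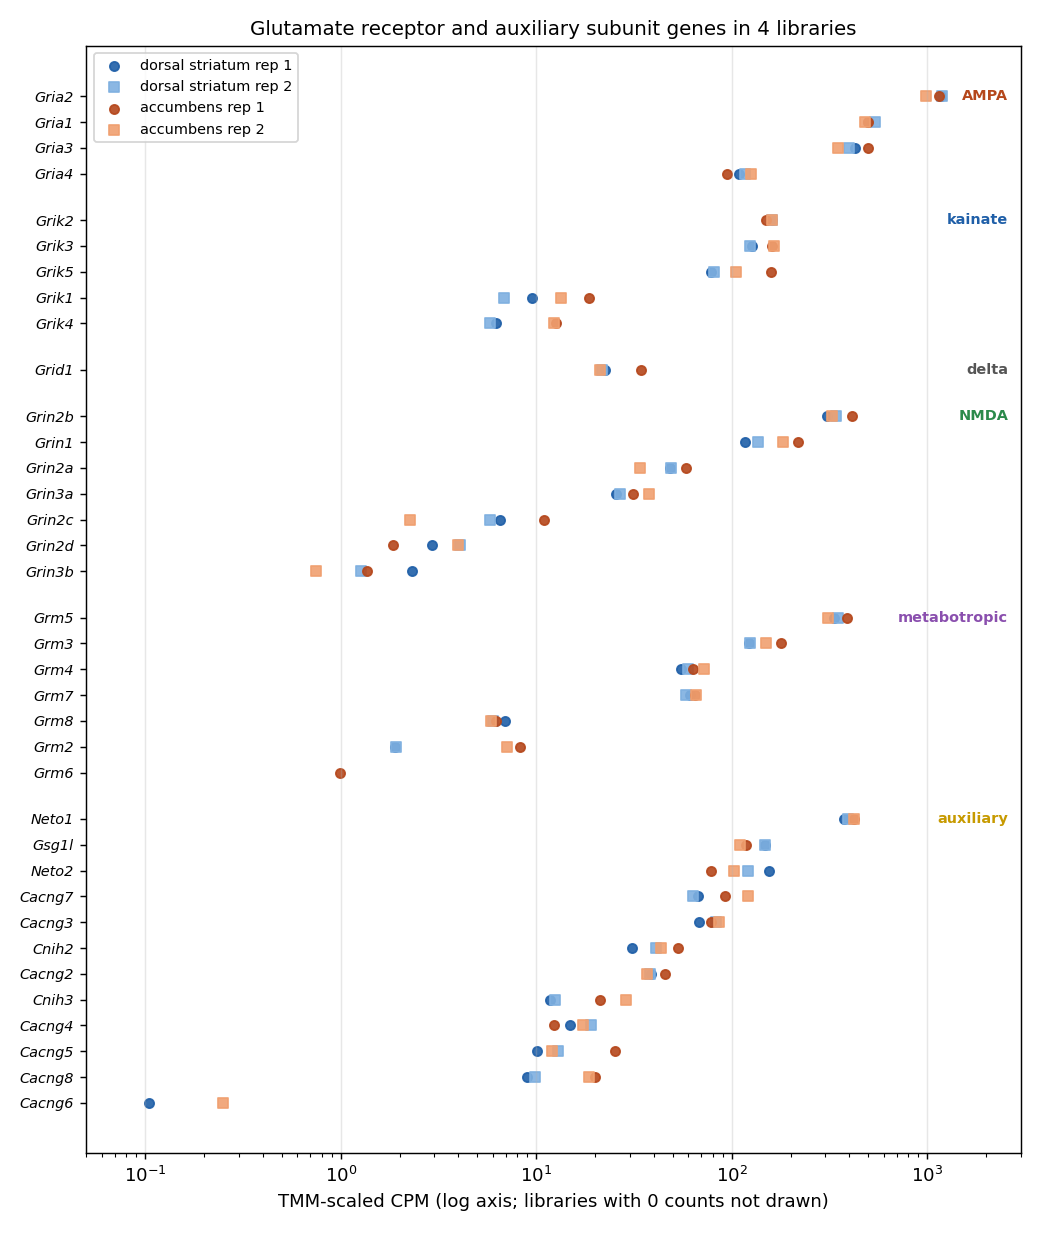
TMM-scaled CPM (x axis, log scale) of the genes shown (y axis, grouped by receptor family) in the 4 libraries, with 1 point per library. Points of a gene mostly lie close together along several orders of magnitude, and Grm2 and Grik4 are among those whose accumbens points lie apart to the right.

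None of the 36 tested genes passed the threshold between the regions (edgeR quasi-likelihood test, Benjamini-Hochberg adjusted p under 0.05), where 1.28% of all 14493 tested genes did. At an unadjusted p under 0.05 there were 13 members, or 36.1%, against 19.2% of all tested genes. Of the 13, 10 were higher in accumbens (27.8%, against 10.9% of all genes) and 3 were lower (8.33%, against 8.27%). The 10 were Grin1, Cacng7, Grm2, Cnih3, Grik5, Cacng8, Grik4, Grm3, Grik3 and Grik1, and the 3 included Neto2 and Gsg1l. The 4 libraries did not overlap between regions for 19 members (52.8%), a share close to the 51.2% of all genes. They comprised 15 members higher in accumbens (41.7%, against 25.6%) and 4 lower (11.1%, against 25.6%). The median log2 fold change, accumbens over dorsal striatum, was 0.12 over the members and 0.02 over all genes. Without accumbens replicate 2 these medians were 0.245 and −0.02, and with library size alone −0.05 and −0.15.

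Other tools passed some of these members at an adjusted p under 0.05. DESeq2 passed 5 of 36, Grin1, Cacng7, Grik5 and Neto2 among them (13.9%, against 6.10% of all genes). It gave no adjusted p for Grm2, Grm8, Grin2d and Grin3b, and both shares count genes without one as not passing. With limma-voom only Grin1 passed (adjusted p = 0.0499), or 2.78%, against 2.97%. Without the low-count filter 7 of 38 passed (18.4%, against 5.68%). The count rested on the accumbens pair. Without accumbens replicate 1 it was 7 (19.4%, against 18.2%) and without accumbens replicate 2 it was 14 (38.9%, against 28.9%). Such a fit leaves 1 accumbens library, whose spread is assumed equal to that of the other region. The count stayed at 0 without dorsal striatum replicate 1 (0.710% of all genes) and without dorsal striatum replicate 2 (1.09%). On simulated counts for this comparison, over 14046 genes, the edgeR test recovered 23% of genes changed 2-fold and 58% of those changed 4-fold. Differences of the size seen in most members could thus be missed. The simulation gave each gene the same spread in both regions and changed genes picked at random. Its rates are therefore not those of the members.

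**Figure D2:**
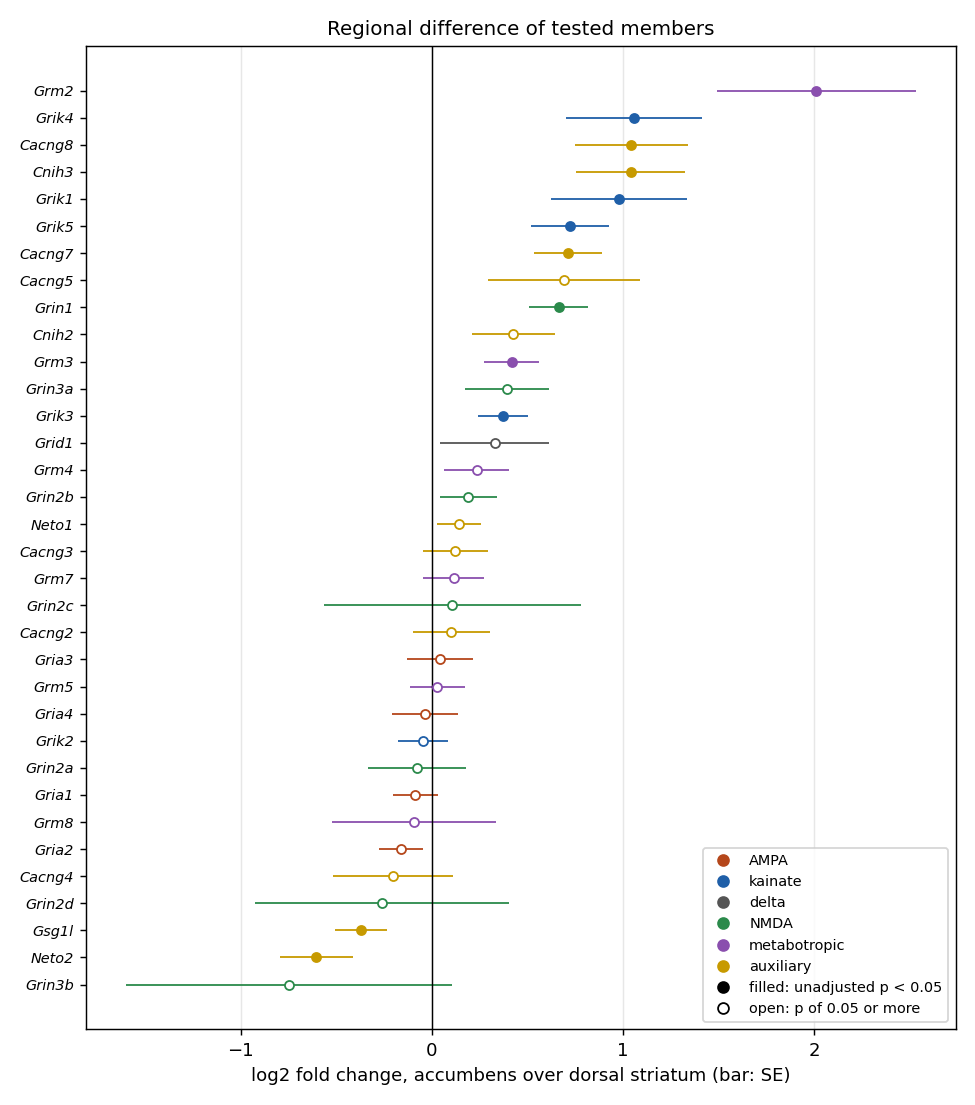
Log2 fold change of accumbens over dorsal striatum (x axis) for tested genes (y axis, sorted), with bars of 1 SE, coloured by family. Filled points have an unadjusted p under 0.05, with 10 genes right of 0, and Neto2 and Gsg1l left of it.

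Among the AMPA receptor genes Gria2, Gria1 and Gria3 had the highest CPM of all members, and no AMPA receptor gene passed between the regions. Gria2, whose subunit in its edited form keeps the channel from passing calcium, stood at 1180 and 1195 CPM in dorsal striatum and 1142 and 984 CPM in accumbens. Both accumbens values lay below both dorsal values, by an amount that did not pass the test (log2 fold change −0.16, SE 0.12, edgeR adjusted p = 0.504). Gria1, a subunit known for its activity-dependent insertion at synapses, stood at 497 and 543 against 499 and 481 CPM, with overlapping groups. Gria3 stood at 429 and 398 against 500.2 and 351 CPM, where the accumbens libraries bracket the dorsal ones. Gria4, which is prominent in some interneurons, stood at 109 and 117 against 94.8 and 126 CPM. No AMPA receptor gene had an unadjusted p under 0.05, and their log2 fold changes ran from −0.16 to 0.04, with SE between 0.12 and 0.17.

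Levels were compared between genes per kilobase of the longest protein-coding transcript. On that scale Gria2, Gria1 and Gria3 gave similar shares of the AMPA sum in every library (34.8% to 37.2%, 28.7% to 31.8% and 24.6% to 30.7%), and Gria4 gave 5.55% to 8.48%. With the length of all exons in place of the longest transcript, Gria1 came first (37.2% to 40.1%) and Gria2 next (31.9% to 34.7%). The order of these leading genes therefore depends on the gene model.

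Kainate receptor genes included 4 of 5 with an unadjusted p under 0.05, all higher in accumbens, where 10.9% of all genes were. With an offset for GC content Grik3 (edgeR unadjusted p = 0.0832) and Grik5 (0.0613) were no longer among them. Grik1, Grik2 and Grik3 encode the low-affinity subunits that can form channels by themselves, while the high-affinity subunits of Grik4 and Grik5 need one of the former as a partner. Grik5 stood at 78.2 and 81.6 CPM in dorsal striatum and 158 and 105 CPM in accumbens. Both accumbens libraries were higher, and they differed from each other by more than the dorsal pair did (log2 fold change 0.72, SE 0.20, edgeR adjusted p = 0.120). Without accumbens replicate 1 the value was 0.39. Grik4 was much less abundant, at 6.20 and 5.82 against 12.6 and 12.4 CPM, and its pairs were tight (log2 fold change 1.06, SE 0.36, adjusted p = 0.165). Grik3 stood at 127 and 124 against 160 and 165 CPM (0.37, SE 0.13, adjusted p = 0.181). Grik1 stood at 9.46 and 6.85 against 18.7 and 13.4 CPM, a log2 fold change of 0.98 (SE 0.36, adjusted p = 0.189). Grik2 stood at 160 and 161 against 150 and 161 CPM, so the groups overlapped and the log2 fold change was −0.04 (SE 0.13).

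The balance within the family followed from these values. Counts of the high-affinity genes Grik4 and Grik5 together were 0.284 and 0.30 of those of Grik1, Grik2 and Grik3 in dorsal striatum, and 0.519 and 0.347 in accumbens. A ratio within a library does not depend on the scaling between libraries, but an effect of GC content that differs between libraries would not cancel in it. The transcripts of Grik5 and Grik2 have 62.3% and 37.9% GC. With an offset for GC content their log2 fold changes were 0.39 and −0.03, against 0.72 and −0.04 without it. The part of GC content in the ratio was not tested. With 2 libraries against 2, the smallest p that an exact two-sided permutation test can give is 0.333, so such ratios are given as values. Per kilobase, Grik5 made up 37.4% and 39.1% of the kainate sum in dorsal striatum and 50.6% and 40.4% in accumbens, while Grik2 made up 30.5% and 30.7% against 19.2% and 24.6%.

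Among NMDA receptor genes the obligatory subunit gene Grin1 differed most in units of its SE. Grin1 (chromosome 2, 25291181 to 25319187, minus strand) stood at 116 and 137 CPM in dorsal striatum and 219 and 182 CPM in accumbens. All accumbens values were above all dorsal values, and the mean was 127 ± 14.6 against 201 ± 25.7 CPM (SD, n = 2 each). The fold was 1.58 (log2 fold change 0.66, SE 0.16) and did not pass (edgeR adjusted p = 0.0807). The antisense row Grin1os shares exon sequence with it and held 1.89 to 2.15 CPM in any library. Whether counting used strand is not given, so this level does not bound the reads that Grin1 lost or gained there.

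The genes of the glutamate-binding partner subunits of Grin1 overlapped between the regions, and their difference from Grin1 was not tested. Grin2b, the long-lived juvenile-type subunit that remains dominant in striatum, stood at 306 and 341 against 414 and 324 CPM (log2 fold change 0.19, SE 0.15). Grin2a, known to increase with maturation, stood at 48.3 and 48.9 against 58.2 and 33.9 CPM (−0.08, SE 0.26). In both genes the accumbens libraries were on either side of at least 1 dorsal library. Grin3a, whose subunit lowers calcium entry, stood at 25.6 and 26.9 against 31.1 and 37.9 CPM, without overlap (0.39, SE 0.22, adjusted p = 0.377). The remaining genes were scarce. Grin2c, which is expressed in astrocytes of the forebrain, stood at 6.51 and 5.82 against 11 and 2.25 CPM. Its log2 fold change of 0.11 became −1.45 without accumbens replicate 1 (adjusted p = 0.0316). Grin2d stood at 2.94 and 4.06 against 1.86 and 4.0 CPM, and Grin3b at 2.31 and 1.28 against 1.36 and 0.75 CPM. Grin3b shares exon sequence with Tmem259, at 16.5 to 28.5 CPM, so its few counts are uncertain.

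Counts of Grin1 were 0.319 and 0.343 of the summed counts of the 4 Grin2 genes in the dorsal libraries, against 0.451 and 0.501 in those of accumbens. The transcripts of Grin1 and Grin2b differ in GC content (59.4% and 45.7%). With an offset for GC content their log2 fold changes were 0.38 and 0.28, against 0.66 and 0.19 without it. The part of GC content in the Grin1 ratio and shares was not tested. The counts of Grin2a were 0.158 and 0.143 of those of Grin2b in dorsal striatum and 0.141 and 0.104 in accumbens, groups that lie next to each other. Per kilobase Grin1 made up 55.2% and 57.8% of the NMDA sum in dorsal striatum and 64.4% and 65.7% in accumbens. With the length of all exons these shares were 38.0% and 40.5% against 47.1% and 49.3%, so their level depended on the length. Each length is the same in every library, so the swap is no separate check of the regional step.

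**Figure D3:**
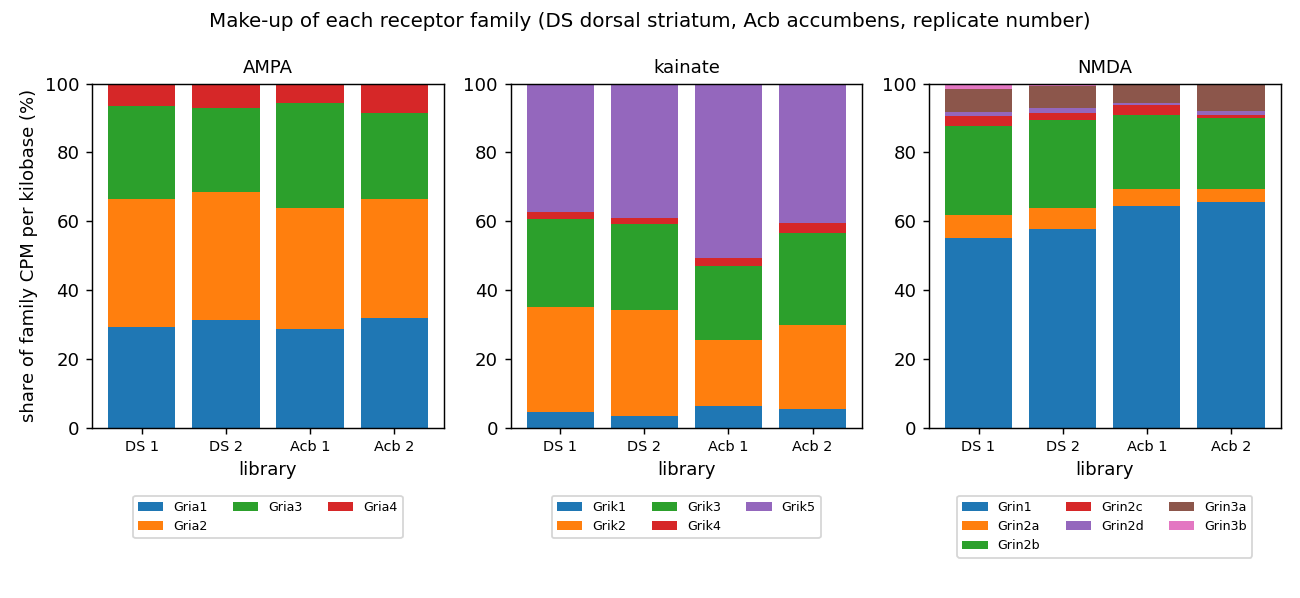
Share of each gene in its receptor family (y axis, percent of the summed CPM per kilobase of the longest protein-coding transcript) in each library (x axis), for AMPA, kainate and NMDA genes. The AMPA bars look alike across libraries, while Grin1 takes 55.2% and 57.8% in dorsal striatum against 64.4% and 65.7% in accumbens.

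Delta receptors bind cerebellins and hold synapses together. Grid1 was low and overlapped between regions, at 22.6 and 21.7 against 34.3 and 21.3 CPM, where accumbens replicate 1 stood alone (log2 fold change 0.33, SE 0.28).

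Among metabotropic receptor genes Grm5, a postsynaptic receptor abundant in spiny projection neurons, stood at 334 and 352 CPM in dorsal striatum and 389 and 310 CPM in accumbens, with overlapping groups (log2 fold change 0.03, SE 0.14).

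Among the 36 tested members Grm2 had the largest fold change. This group II receptor, a presynaptic autoreceptor at cortical and thalamic terminals (chromosome 9, 106643095 to 106656082, minus strand), stood at 1.89 and 1.91 CPM in dorsal striatum and 8.30 and 7.13 CPM in accumbens. Behind these were 18 and 24 against 67 and 57 counts, a fold of 4.03 (log2 fold change 2.01, SE 0.52, edgeR adjusted p = 0.0999). Both pairs were tight. Slc17a7 differed between the dorsal libraries, at 32.3 and 0.717 CPM, where Grm2 stood at 1.89 and 1.91 CPM. In accumbens Slc17a7 stood at 198 and 79.4 CPM, so both genes were higher there. The part of cortical RNA in the Grm2 result was not tested. Grm3, found in astrocytes as well as neurons, stood at 122.8 and 124.6 against 180 and 151 CPM (0.42, SE 0.15, adjusted p = 0.177). The counts of Grm2 were 0.0154 and 0.0154 of those of Grm3 in the dorsal libraries and 0.0462 and 0.0473 in the accumbens libraries. Astrocyte markers summed to 361 and 231 against 333 and 322 CPM, with 3 of 6 on the positive side. Of the 6, 1, Gja1, passed, higher in accumbens, where 0.994% of all genes did. The part of astrocytes in the Grm3 result was not tested.

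Group III genes, which act mainly at presynaptic terminals, were close to level. Grm4 stood at 55.3 and 59.5 against 63.3 and 71.8 CPM (log2 fold change 0.23, SE 0.17), and Grm7 at 61.4 and 58.7 against 64.5 and 65.3 CPM (0.11, SE 0.16). Neither pair of groups overlapped, although the gaps were small beside the SE of the fold change. Grm8 stood at 6.93 and 5.98 against 6.19 and 5.88 CPM. Per kilobase, Grm3 and Grm5 were the leading metabotropic genes in every library, with 30.2% to 38.3% and 27.9% to 32.2% of the family sum.

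Auxiliary genes lay on both sides. Among the TARPs, which bind AMPA receptors and alter their gating, Cacng7 stood at 67.5 and 63.7 CPM in dorsal striatum and 92.9 and 122 CPM in accumbens (log2 fold change 0.71, SE 0.18, edgeR adjusted p = 0.0916). Cacng8, the TARP best known from hippocampus, stood at 8.93 and 9.80 against 20.1 and 18.6 CPM, a fold of 2.06 (1.04, SE 0.29, adjusted p = 0.121). Both genes lie on chromosome 7 within the same cluster, Cacng7 at 3332955 to 3368221 and Cacng8 at 3390683 to 3415648, with the scarcely counted Cacng6 beside them. The other TARP genes overlapped between regions. Cacng3, the most abundant of these, stood at 67.8 and 83.1 against 78.0 and 86.4 CPM, and Cacng2, known as stargazin, at 38.8 and 38.2 against 45.8 and 36.8 CPM. Cacng4 stood at 14.9 and 19.1 against 12.3 and 17.4 CPM, and Cacng5 at 10.1 and 13.0 against 25.4 and 12 CPM, where accumbens replicate 1 stood alone.

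The cornichon gene Cnih3 stood at 11.8 and 12.4 against 21.2 and 28.6 CPM, a log2 fold change of 1.04 (SE 0.28, edgeR adjusted p = 0.112). Its relative Cnih2 stood at 30.8 and 40.8 against 52.9 and 43.5 CPM (0.43, SE 0.22, adjusted p = 0.334). Cornichons promote the export of AMPA receptors to the surface and prolong their currents. Gsg1l encodes an AMPA receptor partner that reduces currents, and its levels were lower in accumbens without passing the test, at 148 and 148 CPM in dorsal striatum and 118 and 110 CPM in accumbens (−0.37, SE 0.14, adjusted p = 0.189). Counts of Gsg1l, not corrected for transcript length, were 3.47 and 2.78 times those of Cnih2 and Cnih3 together in dorsal striatum and 1.59 and 1.53 times in accumbens. Per kilobase Gsg1l made up 17.8% and 17.1% of the auxiliary sum in dorsal striatum and 12.5% and 11.2% in accumbens. Cnih2 made up 10.9% and 13.8% against 16.3% and 12.9%, and Cnih3 2.09% and 2.11% against 3.29% and 4.27%. On that scale Cnih2 lay above Gsg1l in accumbens and below it in dorsal striatum.

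The kainate receptor partners Neto1 and Neto2 lay on opposite sides of 0, and the difference between them was not tested. Neto1, which also binds NMDA receptors and was the most abundant auxiliary gene, stood at 375 and 391 against 420 and 425 CPM (log2 fold change 0.14, SE 0.11). Neto2 (chromosome 8, 85636588 to 85700924, minus strand) stood at 155 and 121 against 77.9 and 103 CPM. Its groups did not overlap but each pair was spread (−0.61, SE 0.19, edgeR adjusted p = 0.143). The counts of Neto2 were 0.412 and 0.309 of those of Neto1 in dorsal striatum and 0.185 and 0.242 in accumbens.

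Members with GC-rich transcripts tended to have the higher values in accumbens. Across the 36 tested members the log2 fold change and the GC content of the longest protein-coding transcript had a Pearson correlation of 0.30 (Spearman 0.33). Across the 12417 tested genes with a GC value it was 0.16 (Spearman 0.21). All points share the same 4 libraries, and these values are descriptions. Of the 11 members over 55% GC, 8 were on the positive side, with a median of 0.43, while the 25 others, 15 of them positive, had a median of 0.10. With an offset fitted to GC content over all genes the medians were 0.11 and 0.11, and the correlation over the members was 0.04.

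The contrast in base composition can be seen in the coding sequence. Of the 13 members with an unadjusted p under 0.05, Cacng8 and Grik5 had the highest transcript GC content (65.1% and 62.3%), and Neto2 and Grm3 the lowest (36.5% and 47.6%). For each, 90 coding bases around the middle of the coding sequence are shown, from the GENCODE M21 transcript on GRCm38, with G and C in capitals.
Cacng8: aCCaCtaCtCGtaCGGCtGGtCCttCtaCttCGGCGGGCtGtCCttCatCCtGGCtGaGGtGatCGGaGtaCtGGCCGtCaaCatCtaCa
Grik5: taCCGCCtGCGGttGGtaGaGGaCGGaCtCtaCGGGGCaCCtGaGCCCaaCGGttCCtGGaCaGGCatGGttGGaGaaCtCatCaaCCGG
Grm3: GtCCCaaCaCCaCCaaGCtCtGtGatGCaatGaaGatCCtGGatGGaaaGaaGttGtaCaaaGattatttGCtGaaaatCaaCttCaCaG
Neto2: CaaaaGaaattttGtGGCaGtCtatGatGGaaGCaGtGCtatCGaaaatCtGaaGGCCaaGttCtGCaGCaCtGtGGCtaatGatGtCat
The Cacng8 bases (exon 6, chr7:3414923-3415012, plus strand) held 51 G or C of 90, and those of Grik5 (exon 12, chr7:25046174-25046263, minus strand) held 55. The Grm3 bases (exon 3, chr5:9569919-9570008, minus strand) held 37, and those of Neto2 (exon 7, chr8:85647808-85647897, minus strand) held 38. Over the whole coding sequence the GC content was 66.7% for Cacng8, 61.7% for Grik5, 48.4% for Grm3 and 42.6% for Neto2. The 90 bases thus do not keep the order of Cacng8 and Grik5 or of Grm3 and Neto2.

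With the GC offset the log2 fold changes of several GC-rich members were smaller. Grin1 moved from 0.66 to 0.38, Grik5 from 0.72 to 0.39, Cacng7 from 0.71 to 0.47, Cacng8 from 1.04 to 0.72 and Cnih2 from 0.43 to 0.11. Gsg1l, whose transcript has 56.9% GC, moved from −0.37 to −0.58, and Grm4 from 0.23 to −0.08. Members of lower GC content moved in some cases and not in others. Grik3 went from 0.37 to 0.26, and its unadjusted p from 0.0219 to 0.0832. Cacng3 went from 0.12 to 0.0026 and Cacng4 from −0.20 to −0.31, and Gria4 and Grin2a turned sign. Neto2 stood at −0.59, Grik1 at 1.04, Grik4 at 1.02 and Cnih3 at 0.97. Grm2 stood at 1.81. With the offset 11 members had an unadjusted p under 0.05 (30.6%, against 18.2%), without Grik3 and Grik5, 0 passed the adjusted threshold (against 0.835% of all genes), and the part of GC-related capture in these results was not tested.

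**Figure D4:**
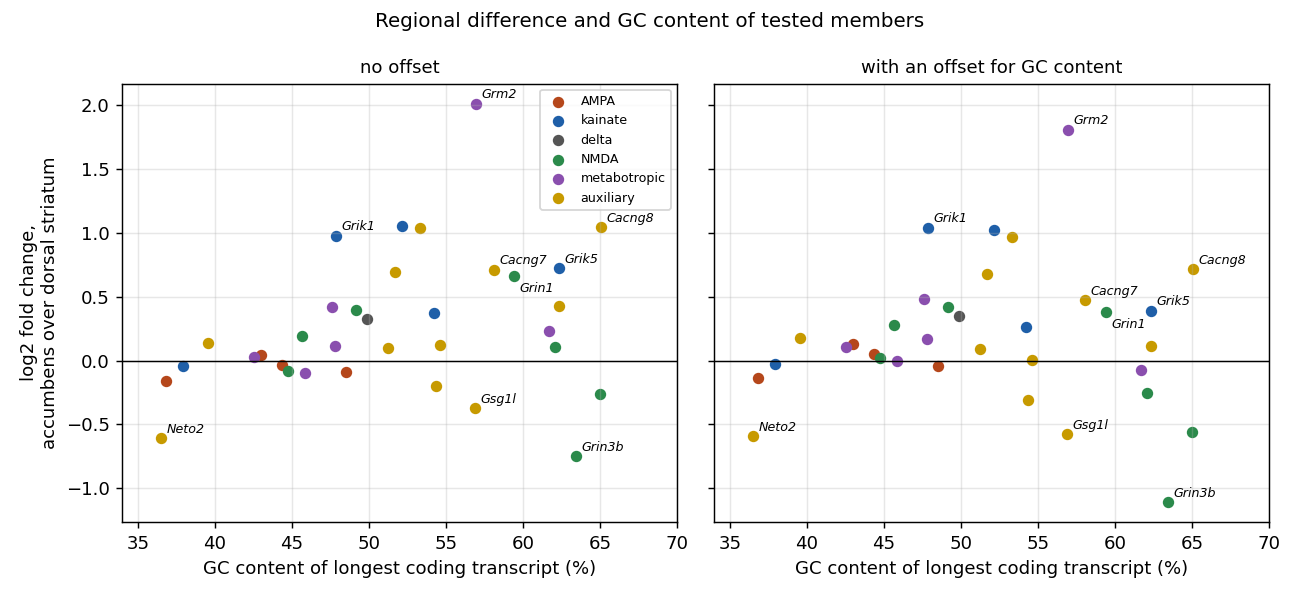
GC content of the longest protein-coding transcript (x axis, percent) and log2 fold change of accumbens over dorsal striatum (y axis) of the tested genes, without (left) and with (right) an offset for GC content, coloured by family. Genes over 55% GC lie lower on the right (median 0.11) than on the left (median 0.43), while Grm2, Grik1 and Neto2 keep their side.

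Other genes of the glutamate synapse were taken from 7 lists by role. Of their 79 genes 74 were tested and 3 passed the edgeR threshold, or 4.05%, all higher in accumbens, against 1.28% of all genes in either direction and 0.994% higher. None was lower, against 0.290%. Shank1, a scaffold of the postsynaptic density, stood at 185 and 189 CPM in dorsal striatum and 441 and 386 CPM in accumbens (log2 fold change 1.14, SE 0.13, edgeR adjusted p = 0.0233). Camk2a, the alpha subunit of the kinase that phosphorylates AMPA receptors, stood at 1216 and 1241 against 1926 and 1823 CPM (0.61, SE 0.10, adjusted p = 0.0431). Olfm1, a secreted protein found in AMPA receptor complexes, stood at 83.1 and 73.9 against 154 and 136 CPM (0.88, SE 0.15, adjusted p = 0.0431). With the GC offset Shank1 still passed at 0.83 (adjusted p = 0.0316), while Camk2a (0.54, adjusted p = 0.0565) and Olfm1 (0.74, adjusted p = 0.0665) did not. Olfm1 also missed without either dorsal striatum library (adjusted p = 0.0643 and 0.170), and it and Camk2a missed with library size alone (0.0554 and 0.0643).

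By role, 1 of 19 scaffold genes passed (Shank1), 1 of 11 genes of receptor kinases and group I signalling (Camk2a) and 1 of 11 other AMPA receptor partners (Olfm1). Of 17 tested extracellular organisers 0 passed (edgeR), with 6 higher and 0 lower at an unadjusted p under 0.05 (10.9% and 8.27% of all genes). The most abundant was Nrxn3, which encodes a presynaptic adhesion protein, at 428 and 492 against 606 and 618 CPM. Of 10 genes of uptake and the glutamine cycle 0 passed, with 1 higher and 2 lower at an unadjusted p under 0.05. The astrocyte transporter gene Slc1a2 stood at 2448 and 1700 against 2844 and 2401 CPM, and Glul, which encodes glutamine synthetase, at 523 and 403 against 464 and 489 CPM. Of 3 vesicular transporters 0 passed, with Slc17a7 alone at an unadjusted p under 0.05 (edgeR log2 fold change 3.12, adjusted p = 0.162). Without dorsal striatum replicate 1 its value was 7.55, and without dorsal striatum replicate 2 it was 2.10. Each of these fits leaves 1 dorsal library, which has no spread of its own. Slc17a6 stood at 15.2 and 22.4 against 3.59 and 19.9 CPM. Of 3 tested co-agonist genes 0 passed and 0 had an unadjusted p under 0.05. Srr, which encodes the enzyme that makes D-serine, stood at 75.1 and 77.6 against 76.9 and 78.4 CPM, and Phgdh at 13.9 and 14.0 against 13.1 and 14.0 CPM. Over all 74 partner genes 23 were higher and 8 lower at an unadjusted p under 0.05, where 10.9% of all genes were higher and 8.27% lower. The median log2 fold change was 0.25, against 0.02 over all genes. DESeq2 passed 19 of the 74 (6.10% of all genes) and limma-voom 9 (2.97% of all genes).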

How the data were processed

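The files that the authors deposited hold unnormalized read counts by gene symbol for each library. The submitters' processing notes name STAR 2.0.0e, HTSeq and mm10. The gene annotation and whether counting used strand are not given in the sources used. Reads of overlapping or antisense genes therefore cannot be told apart, and 5 of the 38 members share exon bases with another counted row. Rows naming no gene were removed before library sizes were computed. Of all rows' counts, reads in no feature were 27.5% to 35.4%, ambiguous reads 6.06% to 9.46% and reads with several alignments 6.98% to 10.2%.

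Counts were tested with edgeR 4.0.16 in R 4.3.3 (TMM, filterByExpr, estimateDisp, glmQLFit, glmQLFTest, two-sided), with region as the only term and Benjamini-Hochberg adjustment over all 14493 tested genes at a threshold of 0.05. Each SE was taken from the fold change and the F statistic. Levels are given in CPM with TMM factors. DESeq2 1.42.0 and limma 3.58.1 (voom) served as alternatives, beside other scalings, no low-count filter, a robust fit, a replicate block, offsets for GC content and length, the 50 most abundant genes left out and each library left out. The GC and length offsets were lowess fits (span 0.3) of each library's deviation from the gene mean. Lengths, GC content and coordinates come from GENCODE M21 (GRCm38, the chromosomes of mm10), and 85.7% of tested genes had a value. The list name Tamalin was matched to the row Grasp through a RefSeq synonym. The procedure was tested on simulated data.

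The labels do not name the animals behind the libraries. The p-values thus reflect library-to-library spread alone, which may be technical. Floors of 3 counts cover counting error only. Members and lists were chosen with earlier results of these data known, and the ratios after their values were seen. The rule was to describe all members, with those past the threshold and up to 4 of the most abundant per family in full. From each partner list those past the threshold were named, or else the 2 most abundant. Some members and list genes are not reported here by name, although they are part of the counts and medians.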

Additional observations from a re-analysis of the deposited data

How the results depend on the processing

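The 13 members with an unadjusted p under 0.05 kept their sign under every alternative run. They were picked by small p from these same libraries, and none of the 13 overlapped between the regions. A kept sign was therefore close to fixed in advance and is no separate check. The count of members past the adjusted threshold was 0 with each other scaling, the robust fit, both offsets, the 50 most abundant genes left out (35 tested) and edgeR with legacy=FALSE, which was chosen after seeing the data. It was 7 without the low-count filter, 5 with DESeq2, 1 with limma-voom and 4 with the replicate block, and 0 to 14 when a library was left out. All genes past the threshold, 186 in the reported fit, were 1203, 884, 431 and 843 under those 4 settings, 121 with the GC offset, 371 with legacy=FALSE and 109 to 4464 when a library was left out. Partner genes, 3 in the reported fit, were 19, 19, 9 and 12 under those 4 settings, 1 with the GC offset, 7 with legacy=FALSE and 3 to 36 when a library was left out. The cause was not tested. Calls were higher in accumbens in 77.4% of cases with TMM, in 67.4% with upper quartiles and in 29.5% with library size alone. The last setting shifted the all-gene median from 0.02 to −0.15.

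The labels do not say that same-numbered libraries are paired, and the correlation of their deviations from the group means was 0.03 over 14493 genes. With the replicate block Cacng7, Grik5, Grin1 and Neto2 passed (edgeR adjusted p = 0.0217, 0.0185, 0.0130 and 0.0439), or 11.1% of members against 5.82% of all genes. Grin2c turned to −0.24 with the block.

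Other log2 fold changes that turned sign were as follows. With library size alone Cacng2 was −0.069, Cacng3 −0.048, Gria3 −0.13, Grin2c −0.065, Grm5 −0.14, Grm7 −0.058, Neto1 −0.029, Glul −0.13 and Srr −0.15. With upper quartiles Gria3 was −0.013, Grm5 −0.026, Glul −0.013 and Srr −0.029. With the GC offset Gria4 was 0.052, Grin2a 0.021, Grin2c −0.25 and Grm4 −0.076, and with limma-voom Grin2c was −0.28. When a library was left out, the ranges were −0.068 to 0.25 for Cacng2, −0.035 to 0.27 for Cacng3, −0.48 to 0.021 for Cacng4, −0.24 to 0.27 for Gria3, −0.26 to 0.15 for Gria4, −0.060 to 0.63 for Grid1, −0.096 to 0.00058 for Grik2, −0.52 to 0.26 for Grin2a, −1.45 to 0.84 for Grin2c, −0.92 to 0.18 for Grin2d, −0.15 to 0.18 for Grm5, −2.40 to 0.068 for Slc17a6, −0.14 to 0.22 for Glul, −0.019 to 0.043 for Srr and −0.090 to 0.0028 for Phgdh.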
